A study of Homo sapiens with 24 samples.

Results

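The genes for the cohesin and condensin complexes and for the insulator protein CTCF were followed in RNA-seq libraries of proliferating and RAS-senescent human fibroblasts. The 10 genes were taken by name and not by a threshold on measured values, although earlier results of these data were known when they were chosen. SMC1A, SMC3, RAD21, STAG1 and STAG2 encode the cohesin ring and its alternative STAG subunits, NIPBL and WAPL encode the factors that load and release the ring, and SMC2 and SMC4 encode the ATPase core that both condensin complexes share. All 10 were found among the 25702 gene identifiers of each library, and all 10 passed the low-count filter that left 13356 genes for testing.

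The libraries came from IMR90 cells, a line of human lung fibroblasts with a finite life span, at passage 23 to 28. Every group carried ER:HRAS(G12V), oncogenic RAS fused to the hormone-binding part of the oestrogen receptor, together with a second retrovirus. Growing cells carried the MSCV vector and received no agent, and RIS (RAS-induced senescence) cells carried the same vector and were given 4-hydroxytamoxifen (4OHT), which switches the fusion on, for 6 days. The shHMGA1 cells carried MSCV miR30 shHMGA1, a single hairpin against the architectural chromatin protein HMGA1, without 4OHT, and the RIS+shHMGA1 cells carried the hairpin and received 4OHT for 6 days. Each of the 4 groups held 6 libraries that the labels call biological replicates, so the comparisons ask what RAS does with and without the hairpin and what the hairpin does with and without RAS.

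Cohesin is a ring that entraps DNA. It holds sister chromatids together from DNA replication to mitosis, and throughout interphase it extrudes chromatin loops that stop where CTCF is bound in the right orientation. Condensin is a related motor that compacts chromosomes for mitosis, and senescent fibroblasts, which have left the cell cycle, rearrange their chromatin extensively.

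Short stretches of the promoters are given first, because genes that are transcribed in the late cell cycle often carry the cell cycle homology element TTTGAA near the start site, and genes under E2F control often carry sites of the form TTTNGCGC. Both motifs were searched on both strands in the RefSeq promoter windows (assembly GRCh38.p14, from 250 bases before to 50 bases after each start), and the windows were placed in GRCh37, the assembly called hg19 in the labels, by exact match. Each printed stretch shows the plus strand from 5′ to 3′, with the match in capitals and 10 bases on either side.
SMC4 (chr3:160117353-160117378): cgcactttttTTCAAAttagtggatc
SMC2 (chr9:106856577-106856602): cgcgccgaaaTTCAAAggaataaata
SMC3 (chr10:112327292-112327317): gaattctagaTTCAAAagaaatccac
CTCF (chr16:67596273-67596298): cgcgcccgctTTTGAAagttggcgcc
NIPBL (chr5:36876812-36876839): gttgttagtgTTTGGCGCcggcggaggg
STAG2 (chrX:123095847-123095874): gttggggggtTTTGGCGCcacttttgtt
The element TTTGAA, read as TTCAAA where it lies on the minus strand, was found in 4 of the 9 members that have a window, and in 18.2% of the 27305 genes with one. The form TTTNGCGC was found in 2 of the 9 members and in 2.17% of those genes. In bases from the start site of the window, TTTGAA lay at -3 in SMC2, -75 in SMC4, -146 in CTCF and -151 in SMC3. The matches of TTTNGCGC lay at -49 in NIPBL and -51 in STAG2. These are matches of letters, not sites shown to be bound.

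Total counts ranged from 8698070 to 23103424 per library with a median of 10604084. The member with the fewest counts in any library was SMC4, with 77 in growing replicate 4, so the spread between libraries and not counting error set the precision. HMGA1, the gene targeted by the hairpin, lay between 639 and 861 CPM (reads of a gene scaled to a common library size, with TMM factors) in the 12 libraries with control vector and between 54.4 and 262 CPM in the 12 with the hairpin, without overlap. In the hairpin libraries numbered 5 and 6 it was at 54.4 to 75.1 CPM, and in those numbered 1 to 4 at 98.7 to 262 CPM. Of 8 fibroblast markers all were detected, and their summed level fell from between 14153 and 20114 CPM in shHMGA1 cells to between 4516 and 5892 CPM in RIS+shHMGA1 cells. Of 8 epithelial, endothelial and leukocyte markers 7 did not pass the filter, and the sum over the list lay between 42.1 and 107 CPM in all libraries, nearly all of it from CD68.

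In the control-vector groups 1 library on each side went against its label. The leading principal component over libraries held 73.9% of the variance of log2 CPM, and on it growing replicate 4 scored 77.3 against -84.3 to -57.2 for the other growing libraries, and RIS replicate 2 scored -77.1 against 16.8 to 62.1 for the other RIS libraries. The summed level of 16 proliferation markers was 354 CPM in growing replicate 4 and 1184 to 1705 CPM in the other growing libraries. In RIS replicate 2 this sum was 1115 CPM, against 295 to 389 CPM in the other RIS libraries. Both libraries were kept in their labelled groups, and comparisons that hold them are given with and without them. They were set apart by measured values that differ between RIS and growing cells. Leaving them out therefore widens the difference between these groups and narrows their spread by choice. The FDR, exact p and overlap without them do not allow for that choice.

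Levels of different genes were compared per kilobase of their canonical transcript. Over the 5 growing libraries without replicate 4, RAD21 had the highest mean level at 43.3 CPM per kb, followed by SMC4 at 23.7 CPM per kb. The other 7 cohesin, CTCF and condensin genes from SMC1A (12.8 CPM per kb) down to SMC2 (7.91 CPM per kb) lay close together, and NIPBL was the lowest at 4.91 CPM per kb. Over the 5 RIS libraries without replicate 2, RAD21 was still the highest at 30.2 CPM per kb. STAG2 came next at 10.6 CPM per kb, and SMC4 was lower than all but NIPBL and SMC2, at 3.37 CPM per kb.

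**Figure D1:**
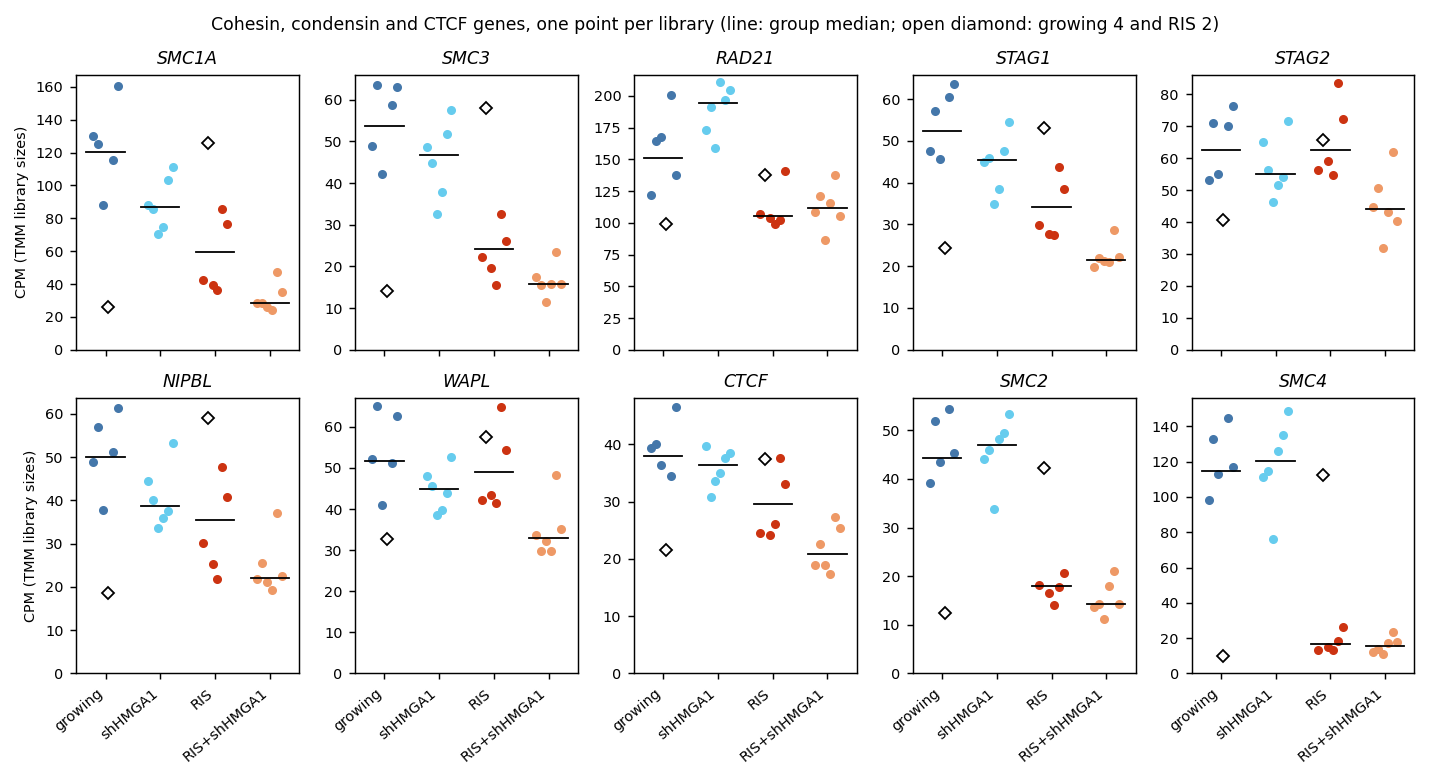
CPM of each of the 10 genes (vertical axis, from 0, on TMM library sizes) in every library of the 4 groups, with a line at the group median and open diamonds for growing replicate 4 and RIS replicate 2. SMC4 and SMC2 are low in both groups given 4OHT apart from the RIS diamond. With the diamonds the RIS libraries overlap the growing ones for all 10 genes, and without them for RAD21, STAG2, NIPBL, WAPL and CTCF.

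RAS was switched on in cells with the hairpin in RIS+shHMGA1 against shHMGA1, a comparison in which neither departing library is a member of a group. Of the 10 genes 7 were called lower and 0 higher, in edgeR's quasi-likelihood fit to all 24 libraries, where a gene is called if its FDR is below 0.01 and its log2 fold change exceeds 0.58 in size. The same thresholds called 19.5% of all tested genes lower and 39.1% in either direction. The median log2 fold change was -0.87 over the 10 genes and -0.02 over all genes tested. In 7 of the 10 every RIS+shHMGA1 library lay below every shHMGA1 library, as did 22.5% of all tested genes. In bulk RNA, fewer cells that express a gene and less of its RNA per cell cannot be told apart, and the proliferation markers moved with these genes. All 16 of them were called lower, with a median log2 fold change of -2.45, and their part in the members' change was not tested.

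By value the condensin core changed the most, but only SMC4 was far from the rest. SMC2 was near SMC1A (log2 fold change -1.49) and SMC3 (-1.46), and was not tested against them. SMC4 had 76.0, 120 and 149 CPM (lowest, median and highest library) in shHMGA1 and 10.9, 15.4 and 23.5 CPM in RIS+shHMGA1. SMC2, its partner in the heterodimer, had 33.7, 47.0 and 53.4 CPM in shHMGA1 and 11.1, 14.3 and 21.2 CPM in RIS+shHMGA1. Neither gene overlapped between the groups. SMC4 fell by 2.90 on the log2 scale (SE 0.53, FDR = 0.00029), a 7.47-fold difference, and SMC2 by 1.57 (SE 0.28, FDR = 0.00026), a 2.97-fold difference.

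Within the cohesin ring the SMC pair changed more than the other subunits. SMC1A had 70.3, 87.2 and 111 CPM in shHMGA1 and 23.98, 28.5 and 47.4 CPM in RIS+shHMGA1. SMC3, with which it forms the V-shaped arms of the ring, had 32.6, 46.8 and 57.5 CPM in shHMGA1 and 11.5, 15.8 and 23.6 CPM in RIS+shHMGA1. The groups were apart for both genes, with log2 fold changes of -1.49 (SE 0.33, FDR = 0.00091) for SMC1A and -1.46 (SE 0.31, FDR = 0.00065) for SMC3. RAD21, the kleisin that closes the ring and is cleaved by separase at anaphase, had 159, 194 and 211 CPM in shHMGA1 and 86.2, 112 and 138 CPM in RIS+shHMGA1, a log2 fold change of -0.75 (SE 0.15, FDR = 0.00044).

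STAG1 and STAG2 are alternative subunits, so that a cohesin ring holds either of them. STAG1 had 34.9, 45.4 and 54.5 CPM in shHMGA1 and 19.8, 21.6 and 28.8 CPM in RIS+shHMGA1. Its groups did not overlap and its log2 fold change was -0.98 (SE 0.19, FDR = 0.00045). STAG2 had 46.3, 55.2 and 71.7 CPM in shHMGA1 and 32.0, 44.04 and 61.8 CPM in RIS+shHMGA1, with overlap between the groups. Its log2 fold change of -0.34 (SE 0.16, FDR = 0.071) did not pass.

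Of the factors that load and release cohesin, NIPBL, the loader, had 33.5, 38.8 and 53.2 CPM in shHMGA1 and 19.3, 22.1 and 37.1 CPM in RIS+shHMGA1. The log2 fold change was -0.73 (SE 0.25, FDR = 0.015), which missed the FDR threshold over 24 libraries. It passed without the departing libraries, at the same value with SE 0.18 and FDR = 0.001, so that 8 of the 10 were then called, where 21.9% of all genes were called lower and 44.4% in either direction. WAPL, which opens the ring and takes it off chromatin, had 38.6, 44.8 and 52.6 CPM in shHMGA1 and 29.7, 32.9 and 48.2 CPM in RIS+shHMGA1, with a log2 fold change of -0.36 (SE 0.16, FDR = 0.049). Both genes overlapped between the groups through RIS+shHMGA1 replicate 5, which was the highest of its group for both. CTCF, the zinc finger protein at which loops end, had 30.8, 36.3 and 39.8 CPM in shHMGA1 and 17.4, 20.8 and 27.3 CPM in RIS+shHMGA1, without overlap, and a log2 fold change of -0.72 (SE 0.16, FDR = 0.00091).

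**Figure D2:**
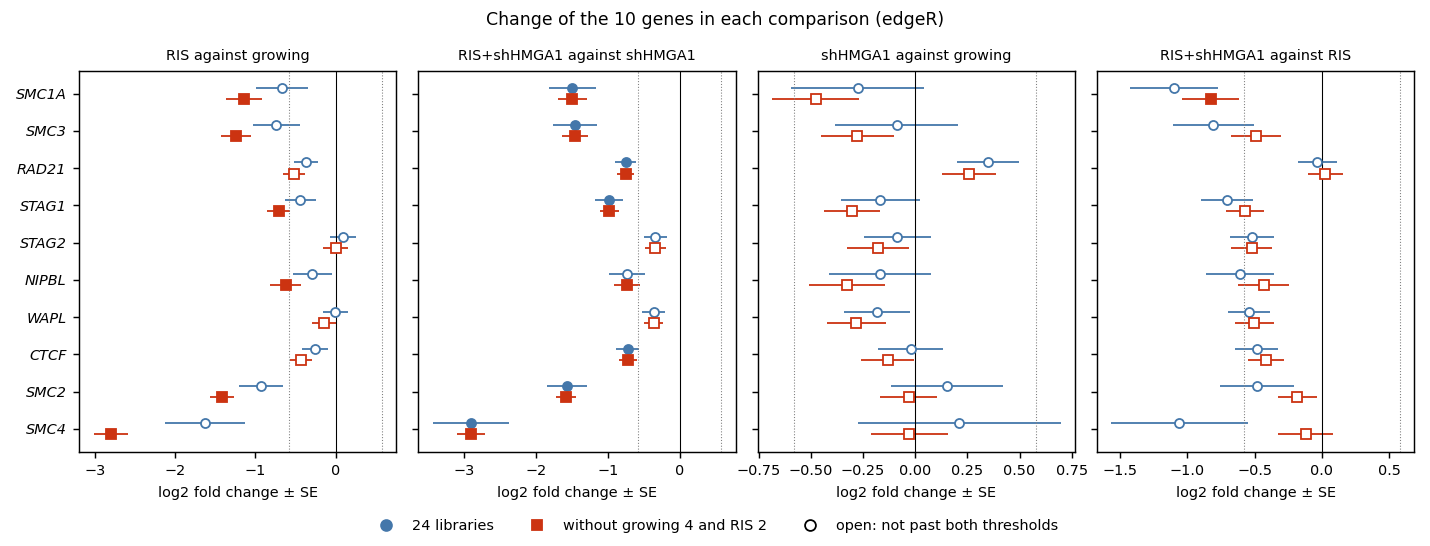
Log2 fold change with its SE for each gene in the 4 comparisons, from the fit to 24 libraries (circles) and from the fit without growing replicate 4 and RIS replicate 2 (squares), filled where both thresholds were passed, with dotted lines at the fold-change threshold. In RIS+shHMGA1 against shHMGA1 both fits give nearly the same values, and in RIS against growing the squares lie further from 0 for SMC4, SMC2, SMC1A and SMC3.

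The libraries numbered 5 and 6 bear on these calls. Without them 0 of the 10 genes and 0 of all genes were called by edgeR in RIS+shHMGA1 against shHMGA1, with 10 of the 10 and 8380 of all genes at an unadjusted p under 0.05. By comparison DESeq2 on all 24 libraries called 7 of the 10, and without them and the departing libraries together 8 of the 10 were called, with 6427 genes in all. A fit shares one estimate of the spread among its groups, so that growing replicate 4 and RIS replicate 2 enter that estimate also where they are in neither group compared.

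The level changes also went with transcript length. In RIS+shHMGA1 against shHMGA1 the median log2 fold change of all tested genes went from 0.49 in length bin 1, which holds the shortest of 5 equal bins of canonical transcripts, to -0.34 in length bin 5, and the share called lower from 8.43% to 29.2%. SMC1A, STAG1, STAG2, NIPBL, WAPL and SMC2 belong to length bin 5, SMC3 and SMC4 to bin 4 (median -0.21) and RAD21 and CTCF to bin 3 (median -0.10). The values of STAG2 (-0.34) and WAPL (-0.36) were thus near the median of transcripts of their length. The other members lay further below theirs, with SMC4 the furthest. The part of transcript length in the members' change was not tested.

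In the cells with control vector, RIS against growing, 0 of the 10 genes and 0.0% of all genes passed both thresholds with all 24 libraries, while 6 of the 10 and 4407 of all genes had an unadjusted p under 0.05. With DESeq2 1 of the 10 and 829 of all genes passed. The groups overlapped for all 10 genes, and 0.21% of all genes lay lower in RIS without overlap. The fit without growing replicate 4 and RIS replicate 2 is a description, since both were set apart by measured values. In it 6 of the 10 were called lower and 0 higher, where 20.5% of all genes were called lower and 39.7% in either direction. The genes were SMC4, SMC2, SMC3, SMC1A, STAG1 and NIPBL, and the first 5 of them did not overlap between the groups, as 19.3% of all genes did not with RIS lower. Of the 16 proliferation markers all were called lower in that fit, with a median log2 fold change of -2.53, and again their part was not tested.

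SMC4 had 98.0, 117 and 145 CPM in the 5 other growing libraries against 9.90 CPM in growing replicate 4. It had 13.3, 14.998 and 26.2 CPM in the 5 other RIS libraries against 112 CPM in RIS replicate 2. The log2 fold change was -1.63 (SE 0.50, FDR = 0.034) with all libraries and -2.81 (SE 0.21, FDR = 6.3e-11) without both. SMC2 had 39.2, 45.3 and 54.4 CPM in the growing libraries without replicate 4 and 14.1, 17.9 and 20.6 CPM in the RIS libraries without replicate 2, and its log2 fold change was -0.93 (SE 0.27, FDR = 0.030) and -1.42 (SE 0.15, FDR = 1.7e-08). RIS replicate 2 held both genes within the range of the growing libraries, and growing replicate 4 held both below the lowest RIS library.

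SMC1A had 88.3, 125 and 161 CPM in growing cells without replicate 4 and 36.6, 42.4 and 85.6 CPM in RIS cells without replicate 2. RIS replicates 5 and 6 were at 85.6 and 76.4 CPM and the other 3 at 36.6 to 42.4 CPM, so the RIS libraries themselves were spread. The log2 fold change was -0.67 (SE 0.32, FDR = 0.15) with all libraries and -1.14 (SE 0.22, FDR = 0.00011) without both. SMC3 behaved alike, at -0.74 (SE 0.30, FDR = 0.09) and -1.24 (SE 0.19, FDR = 4.7e-06), with 42.2 to 63.5 CPM in growing and 15.5 to 32.7 CPM in RIS without the departing libraries.

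STAG1 ranged from 45.7 to 63.7 CPM in growing cells without replicate 4 and from 27.4 to 43.7 CPM in RIS cells without replicate 2, a log2 fold change of -0.71 (SE 0.14, FDR = 0.00016), against -0.44 (SE 0.19, FDR = 0.11) with all libraries. STAG2 ranged from 53.3 to 76.4 CPM in the same growing libraries and from 54.6 to 83.6 CPM in the same RIS libraries. Its groups overlapped throughout, with a log2 fold change of 0.00 (SE 0.16, FDR = 0.99), and 0.10 (SE 0.16, FDR = 0.69) with all libraries.

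NIPBL had a log2 fold change of -0.62 (SE 0.19, FDR = 0.0074) without the departing libraries, and -0.29 (SE 0.25, FDR = 0.42) with them. WAPL was at 41.1 to 65.2 CPM in growing and 41.6 to 64.7 CPM in RIS, with a log2 fold change of -0.14 (SE 0.15, FDR = 0.41), all without the departing libraries. RAD21 at -0.52 (SE 0.14, FDR = 0.002) and CTCF at -0.44 (SE 0.14, FDR = 0.0075) passed the FDR threshold without the departing libraries but not the fold-change threshold. With all libraries RAD21 was at -0.37 (SE 0.15, FDR = 0.088) and CTCF at -0.26 (SE 0.16, FDR = 0.26), and WAPL was at -0.01 (SE 0.16, FDR = 0.98). RAD21 had 122 to 201 CPM in growing and 98.8 to 141 CPM in RIS, and CTCF 34.4 to 46.6 CPM in growing and 24.1 to 37.6 CPM in RIS, with overlap in both. Whether RAS changed any of the 10 genes more with the hairpin than without was tested as the interaction of hairpin and RAS. Of the 10 genes 0 were called, with FDR from 0.43 to 0.50 over 24 libraries, 1 of the 10 and 1371 of all genes had an unadjusted p under 0.05, and 0.0% of all genes were called. With DESeq2 0 of the 10 and 3 of all genes were called. Without the departing libraries 0 of the 10 and 0.00745% of all genes were called by edgeR, and 0 of the 10 and 512 of all genes had an unadjusted p under 0.05.

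The hairpin without RAS, shHMGA1 against growing, called 0 of the 10 genes with 24 libraries and 0 without the departing libraries, where it called 0.27% and 2.59% of all genes in either direction and 0.135% and 1.39% lower. With DESeq2 0 of the 10 and 98 of all genes were called. In edgeR 1 of the 10 and 1759 of the 13356 genes tested had an unadjusted p under 0.05 with 24 libraries. Without the departing libraries 2 of the 10 and 5221 of the 13416 genes tested did. The log2 fold changes lay between -0.28 for SMC1A (SE 0.32, FDR = 0.76) and 0.35 for RAD21 (SE 0.15, FDR = 0.30) with 24 libraries. They lay without the departing libraries between -0.48 for SMC1A (SE 0.21, FDR = 0.093) and 0.26 for RAD21 (SE 0.13, FDR = 0.14). In 0 of the 10 did all shHMGA1 libraries lie below all growing libraries, with or without the departing ones, as 0.554% and 3.62% of all genes did. SMC2 and SMC4 were near 0, at 0.15 (SE 0.27) and 0.21 (SE 0.49), and at -0.03 (SE 0.14) and -0.03 (SE 0.19) without the departing libraries.

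The hairpin with RAS, RIS+shHMGA1 against RIS, called 0 of the 10 genes with 24 libraries, where it called 2.55% of all genes in either direction and 0.786% lower. With DESeq2 2 of the 10 and 1533 of all genes were called. In edgeR 8 of the 10 and 6647 of the 13356 genes tested had an unadjusted p under 0.05. Without the departing libraries 1 of the 10 was called lower, SMC1A, where 2.5% of all genes were called lower and 12.5% in either direction. SMC1A had 36.6, 42.4 and 85.6 CPM in RIS without replicate 2 and 23.98, 28.5 and 47.4 CPM in RIS+shHMGA1, with overlap. Its log2 fold change was -0.83 (SE 0.21, FDR = 0.0056), against -1.10 (SE 0.33, FDR = 0.02) with all libraries. In 0 of the 10 did the RIS+shHMGA1 libraries all lie below the RIS libraries, as 5.23% of all genes did with all libraries and 6.24% without RIS replicate 2. STAG1 at -0.57 (SE 0.14, FDR = 0.0041) and WAPL at -0.50 (SE 0.14, FDR = 0.0095) passed the FDR threshold only.

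STAG2 at -0.52 (SE 0.15, FDR = 0.011) and CTCF at -0.42 (SE 0.13, FDR = 0.017) missed it by little without the departing libraries, and SMC2 at -0.18 (SE 0.15, FDR = 0.33), SMC4 at -0.12 (SE 0.20, FDR = 0.65) and RAD21 at 0.02 (SE 0.13, FDR = 0.90) had the smallest differences in that fit. With all libraries SMC4 was at -1.06 (SE 0.51, FDR = 0.097), the largest difference after SMC1A. SMC2 was then at -0.49 (SE 0.27, FDR = 0.16) and RAD21 at -0.03 (SE 0.15, FDR = 0.87). The other members were at -0.71 (SE 0.19, FDR = 0.016) for STAG1, -0.54 (SE 0.16, FDR = 0.019) for WAPL, -0.52 (SE 0.16, FDR = 0.023) for STAG2 and -0.49 (SE 0.16, FDR = 0.027) for CTCF. SMC3 was at -0.81 (SE 0.30, FDR = 0.043) with all libraries and -0.49 (SE 0.19, FDR = 0.040) without both, and NIPBL at -0.61 (SE 0.25, FDR = 0.058) and -0.43 (SE 0.19, FDR = 0.071). Transcript length moved with this comparison too. In the fit without both libraries the median log2 fold change of all genes went from 0.41 in length bin 1 to -0.28 in bin 5, to which SMC1A, STAG1, STAG2 and WAPL belong, and the part of length in their values was not tested. The comparison shares its RIS+shHMGA1 libraries with the comparison of RIS+shHMGA1 against shHMGA1.

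RIS+shHMGA1 against growing, in which both RAS and the hairpin differ, called 7 of the 10 genes lower with 24 libraries, where 23.9% of all genes were called lower and 45.9% in either direction. Without the departing libraries it called 8 of the 10, where 28.5% of all genes were called lower and 56.9% in either direction. The median log2 fold change over the 10 was -1.02 with all libraries and -1.17 without both.

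The ratio of 2 genes within a library does not depend on the library size, and 3 ratios of partners were compared by two-sided exact permutation tests of the log2 ratio, with p adjusted over the 12 tests of 3 ratios in 4 comparisons. The log2 difference of a ratio follows from the changes of its 2 genes given above. Other gene pairs were not tested, so the share of all pairs that differ as much is not known. STAG2 to STAG1, whose canonical transcripts have similar lengths of 6179 and 6062 bases, was 1.30 ± 0.11 (SD, n = 6) in shHMGA1 and 2.02 ± 0.31 (SD, n = 6) in RIS+shHMGA1. The lowest RIS+shHMGA1 library (1.51) lay above the highest shHMGA1 library (1.44), and the log2 difference of 0.62 had an exact p = 0.0022, the smallest that these 6 against 6 libraries can give, and an adjusted p = 0.013. In growing cells the ratio was 1.27 ± 0.20 (SD, n = 6) and in RIS 1.84 ± 0.31 (SD, n = 6), a log2 difference of 0.53 with an adjusted exact p = 0.019. Without the departing libraries it was 1.19 ± 0.05 (SD, n = 5) and 1.96 ± 0.11 (SD, n = 5), a log2 difference of 0.73 with an adjusted exact p = 0.016. The share of STAG2 counts against STAG1 counts was thus higher with RAS in both vector backgrounds.

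SMC4 to SMC2 was 2.57 ± 0.19 (SD, n = 6) in shHMGA1 and 1.02 ± 0.14 (SD, n = 6) in RIS+shHMGA1, without overlap, a log2 difference of -1.34 with an adjusted exact p = 0.013. In growing against RIS it was 2.28 ± 0.73 (SD, n = 6) against 1.26 ± 0.71 (SD, n = 6), with an adjusted exact p = 0.16. Without the departing libraries it was 2.58 ± 0.06 (SD, n = 5) against 0.98 ± 0.20 (SD, n = 5), a log2 difference of -1.42 with an adjusted exact p = 0.016. Growing replicate 4 had a ratio of 0.80 and RIS replicate 2 a ratio of 2.66. The counts of the 2 genes of the condensin core thus came close to each other in RIS+shHMGA1 cells, while in shHMGA1 cells SMC4 counts were the higher. With control vector this held only without the departing libraries. Those were set apart by values that differ between RIS and growing cells. The transcripts of SMC4 and SMC2 are 5116 and 5928 bases long.

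NIPBL to WAPL, the loader against the release factor, was 0.91 ± 0.06 (SD, n = 6) in shHMGA1 and 0.70 ± 0.09 (SD, n = 6) in RIS+shHMGA1. The groups touched, with the highest RIS+shHMGA1 library at 0.858 and the lowest shHMGA1 library at 0.854, and the log2 difference of -0.37 had an adjusted exact p = 0.017. In growing against RIS it was 0.88 ± 0.16 (SD, n = 6) against 0.72 ± 0.18 (SD, n = 6), with an adjusted exact p = 0.30, and without the departing libraries 0.94 ± 0.05 (SD, n = 5) against 0.66 ± 0.10 (SD, n = 5), with an adjusted exact p = 0.016. NIPBL has the longer transcript, at 10425 against 6310 bases. The 6 tests of the hairpin with or without RAS gave adjusted exact p from 0.71 to 0.94, and from 0.11 to 0.91 without the departing libraries. The lowest with all libraries was that of STAG2 to STAG1 in RIS+shHMGA1 against RIS, with a log2 difference of 0.14. Without the departing libraries the lowest was that of STAG2 to STAG1 in shHMGA1 against growing. Its log2 difference was 0.13 without growing replicate 4 and 0.05 with all libraries. Without the libraries numbered 5 and 6 the 3 ratios kept their direction in the RAS comparisons, but with 4 libraries a group the smallest exact p is 0.029, and adjusted p was 0.11 or more.

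The partners of the 10 genes were read in the same comparison of RIS+shHMGA1 against shHMGA1. Of the 6 non-SMC subunits of condensin 5 were called lower and 0 higher, with a median log2 fold change of -2.60. Of all genes 19.5% were called lower there and 39.1% in either direction. NCAPH (-3.30, SE 0.59, FDR = 0.00026) and NCAPG (-3.06, SE 0.47, FDR = 0.00019) belong to condensin I, as does NCAPD2 (-2.49, SE 0.42, FDR = 0.00022), and NCAPG2 (-2.71, SE 0.48, FDR = 0.00026) and NCAPD3 (-1.55, SE 0.28, FDR = 0.00026) belong to condensin II. NCAPH2, the kleisin of condensin II, named after its value was seen, was at -0.32 (SE 0.10, FDR = 0.0063), under the fold-change threshold. The summed level of these 6 genes went from between 293 and 354 CPM in shHMGA1 to between 95.2 and 110 CPM in RIS+shHMGA1.

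Of 11 regulators of cohesin 6 were called lower and 0 higher, with a median log2 fold change of -0.998, where 19.5% of all genes were called lower. CDCA5 (sororin, which protects cohesion after replication) was at -2.85 (SE 0.44, FDR = 0.00019), and ESCO2, which acetylates SMC3 in S phase, at -2.63 (SE 0.42, FDR = 0.0002). The shugoshins SGO2 (-2.31, SE 0.41) and SGO1 (-2.25, SE 0.39) guard centromeric cohesin, and PTTG1 (securin, -1.84, SE 0.34) holds separase inactive. PDS5B, PDS5A and ESCO1 were named after their values were seen. PDS5B, which works with WAPL, was called at -0.998 (SE 0.21, FDR = 0.00066), while its paralogue PDS5A was at -0.04 (SE 0.11, FDR = 0.72), with 73.2 to 90.1 CPM in shHMGA1 and 71.4 to 91.2 CPM in RIS+shHMGA1. ESCO1, the acetyltransferase that acts throughout the cell cycle, was at 0.46 (SE 0.19, FDR = 0.039), opposite in sign to ESCO2.

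In RIS against growing without the departing libraries the condensin subunits again counted 5 of 6 lower and 0 higher, with NCAPH at -3.33 (SE 0.20, FDR = 8.2e-13), and the regulators 7 of 11 lower and 1 higher. The higher one was ESCO1 at 0.60 (SE 0.17, FDR = 0.0045). Of all genes 20.5% were called lower in that fit and 39.7% in either direction. PDS5B was called lower there at -0.70 (SE 0.18, FDR = 0.0014) and PDS5A was at 0.04 (SE 0.11, FDR = 0.73). With all 24 libraries edgeR called 0 of the 6 subunits and 0 of the 11 regulators, with 6 of the 6 and 8 of the 11 at an unadjusted p under 0.05. Of all genes 0.0% were called and 4407 had an unadjusted p under 0.05. NCAPH was then at -1.99 (SE 0.54, FDR = 0.022), ESCO1 at 0.43 (SE 0.19, FDR = 0.11), PDS5B at -0.46 (SE 0.21, FDR = 0.12) and PDS5A at 0.07 (SE 0.11, FDR = 0.64). In RIS+shHMGA1 against RIS without the departing libraries 0 of the 6 condensin subunits were called by edgeR. An unadjusted p under 0.05 was found for 2 of the 6 and for 6638 of the 13416 genes tested. Of the 11 regulators 2 were called higher, SGO1 (0.92, SE 0.24, FDR = 0.0061) and PTTG1 (0.82, SE 0.19, FDR = 0.003). In that fit 1342 of all genes were called higher. With all libraries 0 of the 6 and 0 of the 11 were called. An unadjusted p under 0.05 was then found for 5 of the 6, 3 of the 11 and 6647 of all genes. SGO1 was at 0.19 (SE 0.41, FDR = 0.73) and PTTG1 at 0.24 (SE 0.34, FDR = 0.58) with all libraries. The median log2 fold change of the 16 proliferation markers was -0.60 with all libraries and 0.21 without the departing ones, and their part in these values was not tested.

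**Figure D3:**
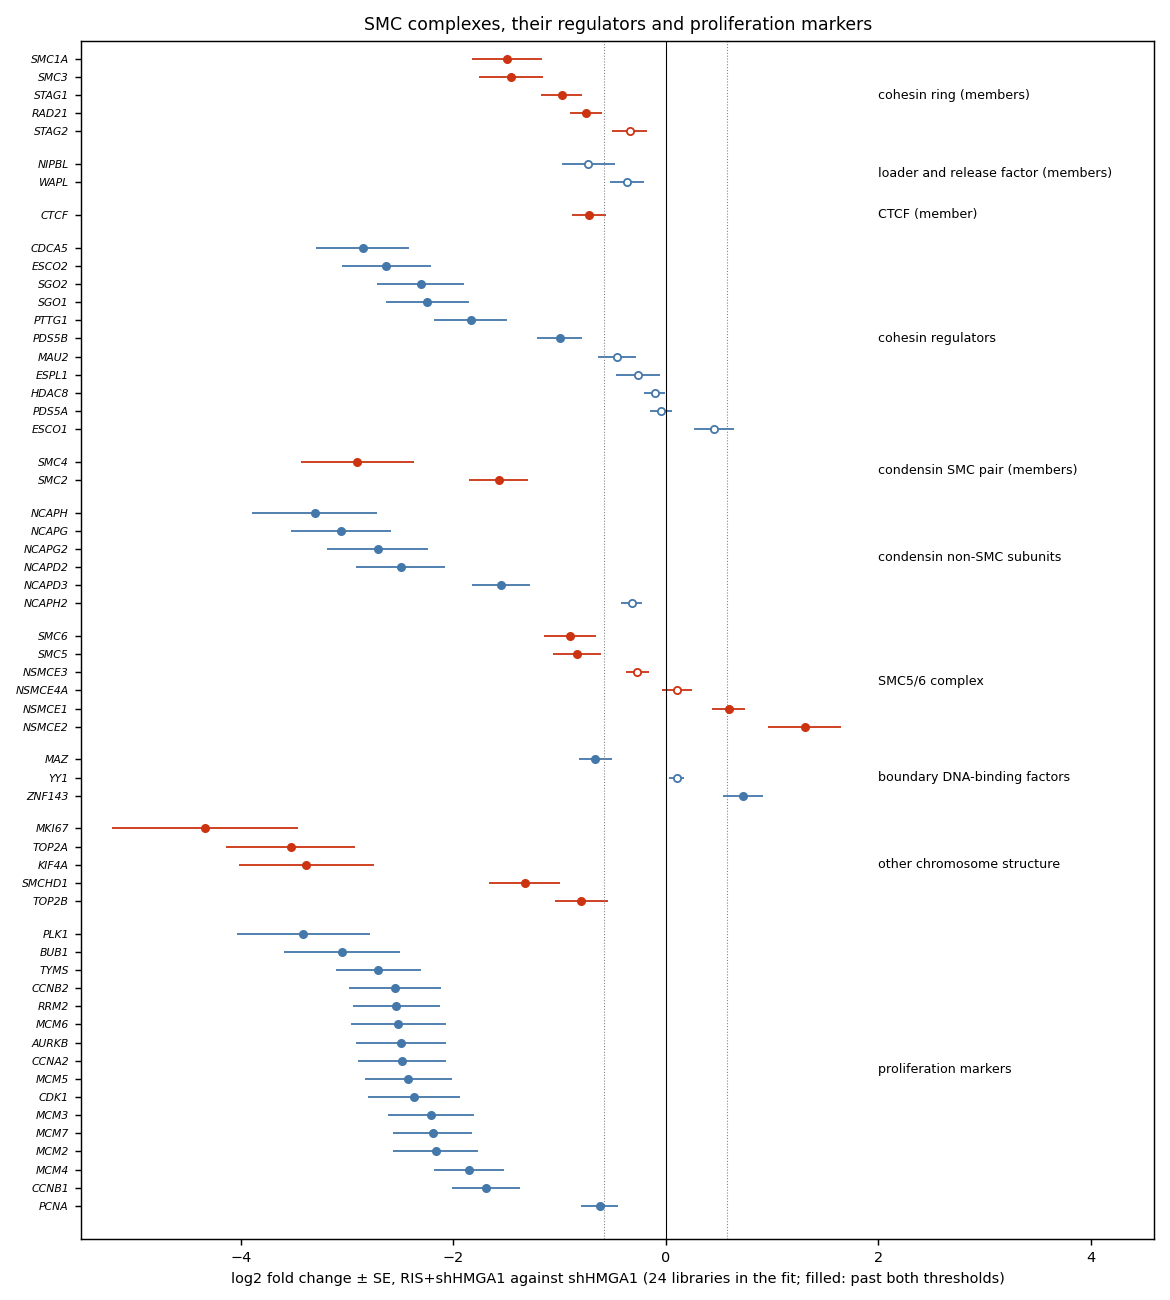
Log2 fold change with its SE in RIS+shHMGA1 against shHMGA1 for the 10 genes, their partners and the proliferation markers, grouped by list and filled where both thresholds were passed, with dotted lines at the fold-change threshold. Apart from PCNA (-0.62), the proliferation markers reach from PLK1 (-3.41) to CCNB1 (-1.69). SMC4 alone of the 10 genes lies in that range. The called condensin subunits and cohesin regulators lie in it too, except NCAPD3 (-1.55) and PDS5B (-0.998). STAG2, WAPL, NCAPH2 and the 5 uncalled regulators lie nearer to 0 than PCNA or above 0.

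Across all 24 libraries the 10 genes differed in how closely they followed each other, with Pearson's r of log2 CPM given here as a description over libraries that share 4 groups and their depths. SMC2 and SMC4 were the closest, at r = 0.99, and SMC1A was close to STAG1 (r = 0.98), SMC3 (r = 0.97), CTCF (r = 0.96) and NIPBL (r = 0.96). RAD21 followed SMC2 (r = 0.90) and SMC4 (r = 0.88) more closely than it did SMC1A (r = 0.69) or SMC3 (r = 0.78). RAD21 and WAPL were the least alike, at r = 0.36. STAG2 was closest to WAPL (r = 0.88) and least like RAD21 (r = 0.43). Outside the 10, the gene with the pattern most like that of SMC4 was STIL (r = 0.994), followed by DEK (r = 0.993), and the gene most like SMC2 was NEDD1 (r = 0.992). The gene most like STAG2 was DDX3X (r = 0.957), and for CTCF it was ELFN2 (r = 0.960), both over the same 24 libraries.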

How the data were processed

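Poly(A) RNA of 24 samples was sequenced from stranded libraries (TruSeq Stranded mRNA, HiSeq-2500). Per the submitters' notes and methods, the authors trimmed adapters with cutadapt 1.10.0, mapped reads to hg19 with STAR 2.5.0b and counted them on genes with Rsubread. The values deposited are raw counts per Entrez identifier. The gene annotation and the strand setting are not given in the sources used here, so reads of STAG2 or RAD21 and of their antisense genes may not be separated. Symbols were assigned by identifier from a RefSeq table (23696 of 25702 found).

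Counts were filtered with filterByExpr (13356 genes), normalised by TMM and tested with edgeR 4.0.16 in R 4.3.3 by quasi-likelihood F-tests over all 24 samples, without a replicate block, and Benjamini-Hochberg FDR was taken over all genes tested. A gene was called at FDR under 0.01 and absolute log2 fold change over 0.58. The fit without the departing libraries tested 13416 genes. Log2 CPM used a prior count of 2. Transcript lengths were those of canonical transcripts and covered 94.6% of tested genes. The edgeR step was tested on simulated counts. No library was a duplicate of another of its own group (lowest chi-square per degree of freedom between replicates 2.77). Pairs of libraries from different groups were not checked.

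The 10 genes and all lists were chosen with earlier results of these data known. The 10 were named throughout. Of other lists, genes past both thresholds in RIS+shHMGA1 against shHMGA1 or against RIS were named, at most 5 in each direction, and exceptions are marked. The 3 most alike genes by Pearson's r over the 24 samples were found for each. Alternatives were RLE factors, DESeq2 1.42.0, limma 3.58.1 voom with sample weights, other filters, thresholds and samples, the replicate block, and each library left out in turn. A block without the departing libraries, and a fit of numbers 1 to 4 without them, were added after seeing the data.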

Additional observations from a re-analysis of the deposited data

Results flagged for a closer look

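A library far from the other 5 of its group, with a gap to its neighbour over Dixon's critical share of the group's range, was found in 15 of 56 groups of values, where about 3 would arise by chance. Of these 8 were in growing replicate 4. It was the lowest library for SMC1A (gap 0.669 of the range), SMC3 (0.729), STAG1 (0.654), SMC2 (0.779) and SMC4 (0.854), and it lay apart in the ratios STAG2 to STAG1 (0.736), NIPBL to WAPL (0.762) and SMC4 to SMC2 (0.947). RIS replicate 2 accounted for 3, as the highest library for SMC2 (0.652) and SMC4 (0.683) and the lowest for STAG2 to STAG1 (0.764). RIS+shHMGA1 replicate 5 was the highest of its group for STAG1 (0.691) and WAPL (0.648). The total count stood apart in growing replicate 1 (0.796), the deepest library, and in RIS replicate 3 (0.684). No explanation of these departures was tested.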

How the results depend on the processing

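The number of the 10 genes called depended on the libraries. In RIS against growing it was 0 with 24 libraries, 1 with DESeq2, 2 at an FDR under 0.05, 6 without growing replicate 4 and RIS replicate 2, 8 with voom weights, and 7 with numbers 1 to 4 alone without both (829, 1537, 5331, 6317 and 6444 genes in all). In RIS+shHMGA1 against RIS it was 0, then 2 with DESeq2, 1 with voom weights, 1 without both libraries, 1 with numbers 1 to 4 alone without both, and 3 at an FDR under 0.05 (341, 1533, 1856, 1677, 1404 and 2898 genes). Without numbers 5 and 6 it was 0 in RIS+shHMGA1 against shHMGA1 and against growing (0 and 5 genes). Leaving out each library in turn gave 0 to 4 for RIS against growing (4 without growing replicate 4, 3 without RIS replicate 2) and 7 to 8 for RIS+shHMGA1 against shHMGA1. It gave 0 to 3 for RIS+shHMGA1 against RIS (3 without growing replicate 4, 1 without RIS+shHMGA1 replicate 5), 6 to 8 for RIS+shHMGA1 against growing, and 0 to 0 for shHMGA1 against growing and for the interaction.

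The replicate numbers were not taken to pair the samples, since in each of the 5 comparisons between groups at least 1 of the 6 correlations of deviations within a number was under 0.1. They ranged from -0.594 to 0.828 in RIS against growing, which holds both departing libraries, and from 0.0747 to 0.481 in shHMGA1 against growing, where 8 of 12 samples correlated best with their own number (2 to 4 of 12 elsewhere). With the replicate number as a block 0 of the 10 were called in RIS against growing and 2, SMC1A and STAG1, in RIS+shHMGA1 against RIS (1637 genes). NIPBL joined the called genes in RIS+shHMGA1 against shHMGA1 (8 of the 10). With the block and without the departing libraries the first 2 counts were 5 (5246 genes) and 1 (1938 genes), and NIPBL in RIS against growing, called without the block at -0.62, was at -0.57 (FDR = 0.0016), short of the fold-change threshold. Tests of the ratios within replicate numbers left the log2 differences at 0.53 and 0.62 for STAG2 to STAG1, -0.37 for NIPBL to WAPL and -1.34 for SMC4 to SMC2, with adjusted exact p of 0.19, 0.12, 0.12 and 0.12; the smallest p such a test allows is 0.031.

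Without numbers 5 and 6 the ratio differences were 0.45 and 0.59 for STAG2 to STAG1 in RIS against growing and in RIS+shHMGA1 against shHMGA1, and -0.35 and -1.39 for the other ratios in the latter, with adjusted exact p from 0.11 to 0.26. Without the departing libraries the ratios NIPBL to WAPL (-0.52) and SMC4 to SMC2 (-1.42) passed in RIS against growing. Differences near 0 changed sign, with no call in either direction. They were NIPBL to WAPL at -0.055 and SMC4 to SMC2 at -0.0075 in shHMGA1 against growing, 0.094 and 0.080 in RIS+shHMGA1 against RIS, and NIPBL to WAPL at 0.023 there without numbers 5 and 6.

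Log2 fold changes that changed sign were all uncalled. In RIS against growing WAPL (main value -0.01) was 0.0074 with RLE factors, 0.0068 with DESeq2, 0.0022 with the block, 0.0054 with the samples of the contrast alone, -0.14 without both departing libraries, and from -0.10 to 0.077 with 1 library left out. STAG2 was -0.19 with voom weights and -0.066 with numbers 1 to 4 alone without both departing libraries. In shHMGA1 against growing CTCF was 0.0032 with the block, 0.028 without numbers 5 and 6 and from -0.13 to 0.060 with 1 library left out, and STAG2 was 0.0077 without numbers 5 and 6. There SMC2 and SMC4 were -0.083 and -0.076 with voom weights, -0.032 and -0.028 without both libraries, -0.042 and -0.049 with the block also, and -0.050 and -0.086 with numbers 1 to 4 alone. With 1 library left out SMC3 ranged from -0.28 to 0.0018, SMC2 from -0.033 to 0.25 and SMC4 from -0.028 to 0.33. In RIS+shHMGA1 against RIS RAD21 was 0.053 with voom weights, 0.024 without both, 0.00070 with the block also, 0.039 with numbers 1 to 4 alone, and from -0.10 to 0.032 with 1 library left out. The interaction of NIPBL was 0.031 with voom weights and 0.056 with numbers 1 to 4 alone. The cause of these changes was not tested.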

Other observations

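Among other relatives of the 10 genes calls went in both directions, as they did over all genes. The SMC5/6 complex is another of the family and acts in DNA repair. Of its 6 genes 2 were called lower and 2 higher in RIS+shHMGA1 against shHMGA1, where 2605 of the 13356 genes tested were called lower and 2615 higher. The ATPases SMC6 (log2 fold change -0.90, SE 0.24, FDR = 0.0036) and SMC5 (-0.84, SE 0.23, FDR = 0.0034) were lower, while NSMCE2, a SUMO ligase (1.31, SE 0.34, FDR = 0.003), and NSMCE1, a ubiquitin ligase (0.59, SE 0.16, FDR = 0.0034), were higher. Changes in this comparison went with transcript length, and its part in these values was not tested. NSMCE2 was also called higher in RIS+shHMGA1 against RIS without the departing libraries (1.08, SE 0.21, FDR = 0.0013). Of the factors that bind boundaries beside CTCF, ZNF143 was higher (0.73, SE 0.19, FDR = 0.0028) and MAZ lower (-0.66, SE 0.15, FDR = 0.0013), 1 in each direction of the 3 tested, and CTCFL, the germline paralogue of CTCF, had 0 counts in all libraries. Of the 4 meiotic cohesin genes 3 were tested and 1 was called lower, STAG3 (-1.45, SE 0.42, FDR = 0.0052), which had at most 35 counts in any library.

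Of 5 other genes of chromosome structure all 5 were called lower in RIS+shHMGA1 against shHMGA1, as were 19.5% of all genes. The median log2 fold change of the 5 was -3.38. They included MKI67, which coats mitotic chromosomes (-4.33, SE 0.87, FDR = 0.00049), TOP2A (-3.53, SE 0.61, FDR = 0.00023), the topoisomerase of mitotic chromosomes, and KIF4A (-3.38, SE 0.63, FDR = 0.00032), which carries condensin I to the chromosome axis. TOP2B, the isoform made in dividing and non-dividing cells, was at -0.79 (SE 0.25, FDR = 0.0095), and SMCHD1, an SMC-like repressor, at -1.33 (SE 0.33, FDR = 0.0021). The 7 inflammatory secretome markers were all called higher in the same comparison, with a median log2 fold change of 3.20. Of the 13356 genes tested 2615 were called higher.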
